A study of Mus musculus with 3 samples.

Results

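The immunity-related GTPases of RAW macrophages were taken as the gene probes named *Irgm1*, *Irgm2*, *Igtp*, *Iigp1*, *Tgtp1*, *Tgtp2*, *Ifi47*, *Gm4951*, *Gm5431* or *Gm12250*. Of these 10 genes 9 had a probe under their own name, with 15 probes in all, out of 26840 genes with a symbol and 56605 gene probes. No probe was named *Tgtp1*, but the single *Tgtp2* probe is listed in the array files for the transcripts of both *Tgtp1* and *Tgtp2*, so that it cannot tell these neighbouring copies apart. RAW is a mouse macrophage cell line, and the study asked how lactobacilli change the response of these cells to lipopolysaccharide (LPS), which signals through TLR4. There was 1 array for each of 3 conditions. The LPS group received 50 ng/mL LPS without lactobacilli. The CRL1505 + LPS group received *L. rhamnosus* CRL1505 at 50000000 cells/mL for 24 h, was washed and was then given the same LPS. The CRL1506 + LPS group received *L. plantarum* CRL1506 in the same way. LPS was thus given to all groups, and the exposure lasted 12 h by the methods but 3 h by the descriptions of the samples. As each condition had a single array, differences could not be checked against replicates and were not tested. Values of other cultures of this line, and of cells without LPS, were not analysed here.

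Immunity-related GTPases are enzymes that macrophages make on exposure to interferons, in particular interferon-γ, and that defend the cell against bacteria and parasites living in vacuoles. They are divided into regulators of the GMS type, named after an unusual residue in the nucleotide-binding motif (*Irgm1*, *Irgm2* and *Igtp*, also called *Irgm3*), and effectors of the GKS type such as *Iigp1* (*Irga6*), *Tgtp* (*Irgb6*), *Ifi47* (*Irgd*) and *Gm12250* (*Irgb10*). The regulators sit on the cell's own membranes and keep the effectors inactive there, while the effectors load onto the vacuole of the pathogen and break it open. Loading also needs the proteins that attach ATG8 to membranes and goes along with guanylate-binding proteins, another family of interferon-induced GTPases.

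Letters that match the sequences read by interferon-activated factors lie just before the transcript start of several of these genes. A GAS element, named for interferon-γ activation, was searched as TTC, any 3 bases and GAA, and an interferon-stimulated response element (ISRE), bound by ISGF3 and IRF proteins, as GAAA, any 2 bases and GAAA, on both strands of the RefSeq promoters of the GRCm38.p6 build, each of 300 bases. The promoters of 8 of the 10 genes were in that table. The 6 promoters with an ISRE match are shown from base -130 to base -1 before the transcript start, 5′ to 3′ on the strand of the gene, with GAS and ISRE letters in capitals.
Igtp, chr11:58199426-58199555, plus strand: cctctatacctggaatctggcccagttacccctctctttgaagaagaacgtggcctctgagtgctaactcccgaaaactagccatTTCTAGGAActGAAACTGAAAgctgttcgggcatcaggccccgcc
Irgm2, chr11:58214847-58214976, plus strand: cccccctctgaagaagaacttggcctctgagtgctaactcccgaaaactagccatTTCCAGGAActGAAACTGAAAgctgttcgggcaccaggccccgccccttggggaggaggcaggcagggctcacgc
Tgtp1, chr11:48992247-48992376, minus strand: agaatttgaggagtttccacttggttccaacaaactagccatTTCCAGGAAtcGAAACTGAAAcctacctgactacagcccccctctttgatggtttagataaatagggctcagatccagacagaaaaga
Tgtp2, chr11:49064213-49064342, minus strand: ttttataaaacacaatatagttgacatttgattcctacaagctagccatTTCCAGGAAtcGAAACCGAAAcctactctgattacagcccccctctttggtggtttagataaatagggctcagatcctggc
Irgm1, chr11:48871421-48871550, minus strand: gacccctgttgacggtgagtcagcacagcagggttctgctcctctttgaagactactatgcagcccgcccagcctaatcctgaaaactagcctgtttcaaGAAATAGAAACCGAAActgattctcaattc
Gm12250, chr11:58183713-58183842, plus strand: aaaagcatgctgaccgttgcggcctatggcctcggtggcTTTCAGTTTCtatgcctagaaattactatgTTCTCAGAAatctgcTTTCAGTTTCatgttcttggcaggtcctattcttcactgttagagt

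In *Igtp*, *Irgm2*, *Tgtp1* and *Tgtp2* a GAS match was followed by an ISRE match with 2 bases between them. This joint element started at base -45 in *Igtp*, -75 in *Irgm2*, -88 in *Tgtp1* and -81 in *Tgtp2*. Around the element, over 100 bases, *Igtp* and *Irgm2* were 96% identical and *Tgtp1* and *Tgtp2* 65%, while the other pairs were 49% to 58% identical. *Gm12250* had an ISRE at -91 and at -46, both in reverse orientation, and a GAS match between them at -61. *Irgm1* had overlapping ISRE matches at -30 and -24 and no GAS match. The windows of *Ifi47* and *Gm5431* held neither set of letters. Of all 32851 promoters in the table, 3.44% held an ISRE match, 8.30% a GAS match and 0.454% both. The joint element, on either strand, occurred in 5 promoters (0.0152%), the 4 above and that of *Gm12185*, another gene of this family. The spacing was chosen after these promoters had been read, and a match of letters is a description of the sequence, not a measured binding site.

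**Figure D1:**
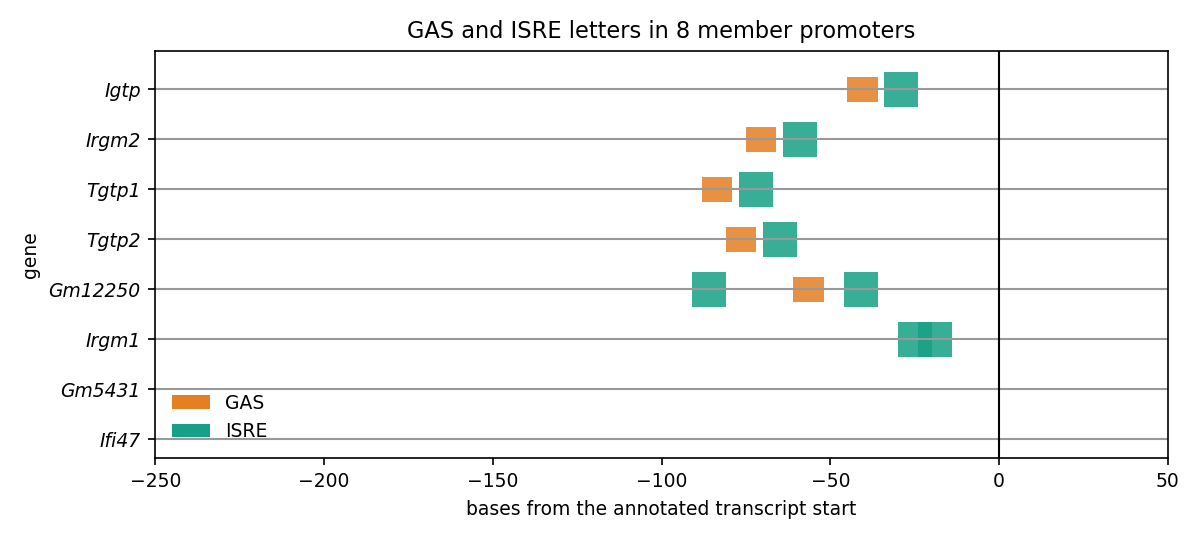
GAS matches (orange) and ISRE matches (green) in 8 promoters, on a horizontal axis of bases from the annotated transcript start. All matches lie within the last 91 bases before the start, and in the upper 4 genes the GAS match directly precedes the ISRE match.

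Signals were compared after the log2 processed intensity of each spot had been shifted by the 75th percentile of its array. Each gene is described by its brightest probe, and all 9 brightest probes were well above background, not saturated and free of outlier flags on the 3 arrays. The error model of the scanner software gave a standard error of 0.20 to 0.22 for each of these genes. Different probes of a gene, over all genes with several probes, had, as a further error, a median SD of 0.23 for CRL1505 + LPS over LPS, 0.22 for CRL1506 + LPS over LPS and 0.32 between strains. Neither covers variation between cultures. LPS and CRL1506 + LPS shared 1 slide and 1 scan run, and CRL1505 + LPS had another slide and run, so that an effect of strain CRL1505 and of the slide cannot be told apart.

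Among the regulators, *Irgm1* (probe at chr11:48679069-48679128, mm9, as are all probe positions) keeps effector GTPases off the membranes of the cell. Its intensity was 13418 with LPS, 21453 with CRL1505 + LPS and 13660 with CRL1506 + LPS, or 4.17, 5.38 and 4.29 as normalized log2 signal. The CRL1505 + LPS array was thus the high one, at a log2 ratio of 1.20 (2.30-fold) to LPS, and the CRL1506 + LPS array lay within 0.12 of LPS. *Irgm2* (chr11:58036064-58036123), which resides on Golgi membranes, gave 10871, 19559 and 9051 in the same order, or 3.87, 5.24 and 3.70 on the normalized log2 scale. Its log2 ratio to LPS was 1.37 (2.59-fold) for CRL1505 and -0.17 for CRL1506. *Igtp* (chr11:58020927-58020986), a regulator of the endoplasmic reticulum, gave 11196, 38003 and 10646, or 3.91, 6.20 and 3.93. At 2.29 (4.88-fold) it had the largest CRL1505 ratio of the 3 regulators, while its CRL1506 ratio was 0.02, well inside the error of a probe.

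Among the effectors, the *Tgtp2* probe (chr11:48871837-48871896) stands for a pair of gene copies, and the first 30 of its 60 bases are shown because its value cannot be assigned to either copy.
Tgtp2 probe, first 30 bases: agaggattcatgctttcccttctcctgatc
Its intensity was 1212 with LPS, 2391 with CRL1505 + LPS and 651 with CRL1506 + LPS, or 0.71, 2.21 and -0.10 as normalized log2 signal. Here CRL1506 + LPS was the low array and CRL1505 + LPS the high one. The log2 ratio to LPS was 1.503 (2.83-fold higher) for CRL1505 and -0.81 (1.75-fold lower) for CRL1506, and the latter was the lowest CRL1506 ratio of the family.

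*Iigp1* (chr18:60552153-60552212) encodes the best studied of the effectors that load onto parasite vacuoles. Its intensity was 1398 with LPS, 5171 with CRL1505 + LPS and 1751 with CRL1506 + LPS, or 0.91, 3.32 and 1.33 as normalized log2 signal. The log2 ratio of 2.41 (5.32-fold) for CRL1505 was the highest among the brightest probes, but a second, dim probe had 0.03, and the mean over both, 1.22, lay below 6 other members. That of 0.42 for CRL1506 by the brightest probe exceeded the SD between probes. *Ifi47* (chr11:48910402-48910461) gave 3977, 13075 and 3864, or 2.42, 4.66 and 2.47. Its pattern was that of *Igtp*, with log2 ratios of 2.24 (4.73-fold) for CRL1505 and 0.05 for CRL1506.

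The remaining members are known mainly as predicted or less studied GTPases, apart from *Gm12250*, whose product attacks the membranes of vacuolar and cytosolic bacteria. *Gm4951* (chr18:60407406-60407465) had an intensity of 1059 with LPS, 2196 with CRL1505 + LPS and 1583 with CRL1506 + LPS, or 0.51, 2.09 and 1.18 as normalized log2 signal. It was above LPS beyond the SD between probes with both strains, as *Iigp1* was, at log2 ratios of 1.58 (2.98-fold) and 0.67 (1.59-fold). *Gm5431* (chr11:48701659-48701718) gave 563, 1070 and 419, or -0.40, 1.05 and -0.74. Its log2 ratio was 1.45 (2.73-fold) for CRL1505 and -0.34 for CRL1506. *Gm12250* (chr11:58003608-58003667), the dimmest of the brightest probes, gave 198, 223 and 135, or -1.90, -1.21 and -2.37. With 0.69 (1.62-fold) it was the single member under 2-fold for CRL1505, and its CRL1506 ratio was -0.46. The intensities before any scaling between arrays were also highest with CRL1505 + LPS for all 9 genes, although the 75th percentile of that array, at 517.0, was below the 743.1 of LPS and the 697.9 of CRL1506 + LPS.

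**Figure D2:**
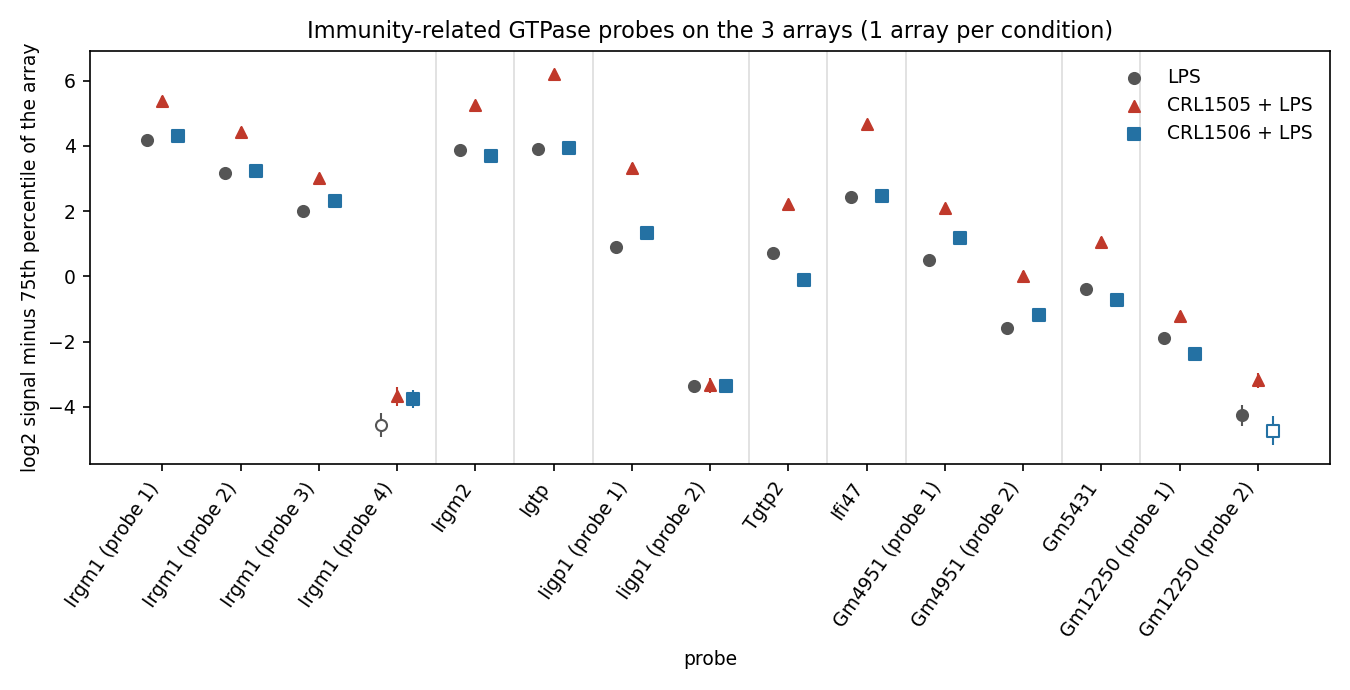
Normalized log2 signal of all 15 member probes (vertical axis, relative to the 75th percentile of the array) with LPS (grey circles), CRL1505 + LPS (red triangles) and CRL1506 + LPS (blue squares); bars are the error of the scanner software, and open symbols are spots not well above background. The red triangle is the highest symbol of each brightest probe, and heights of different probes cannot be compared.

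Relative to LPS alone, 8 of the 9 members were at least 2-fold higher in CRL1505 + LPS, where 9.93% of the 15603 genes compared were, and 0 were at least 2-fold lower, where 8.41% of all genes were. The median log2 ratio of the members was 1.503, with a range of 0.69 to 2.41, and that of all genes compared was 0.01. All 9 members were above 0, as were 50.7% of all genes. Their ratios lay between the 84.2 percentile (*Gm12250*) and the 98.1 percentile (*Iigp1*) of all genes. In descending order by the brightest probe, which for *Iigp1* the second probe did not share, *Iigp1*, *Igtp* and *Ifi47* lay within 0.17 of each other, which is less than the SD between probes, and a gap of 0.67 separated them from the next gene. *Gm4951*, *Tgtp2*, *Gm5431*, *Irgm2* and *Irgm1* followed in steps of 0.17 or less, none of which exceeded that SD, and *Gm12250* lay 0.51 below *Irgm1*. At a 4-fold threshold 3 members remained, which are *Iigp1*, *Igtp* and *Ifi47*, where 2.99% of all genes were higher. At 1.5-fold all 9 were higher, where 19.1% of all genes were, and 0 lower, where 17.2% were.

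In CRL1506 + LPS, 0 members were at least 2-fold higher than with LPS alone, where 5.67% of the 16279 genes compared were, and 0 were at least 2-fold lower, where 3.53% were. The median of the members was 0.02, with a range of -0.81 to 0.67, beside -0.06 for all genes. Of the 9 members 5 were above 0, as were 42.7% of all genes. The highest were *Gm4951*, at the 90.0 percentile of all genes, and *Iigp1*, at the 83.7 percentile. *Tgtp2*, at the 5.29 percentile, was the lowest. At 1.5-fold, *Gm4951* was the 1 member higher, where 11.7% of all genes were, and *Tgtp2* the 1 member lower, where 9.23% were. *Irgm1*, *Ifi47*, *Igtp* and *Irgm2* had ratios smaller in size than the SD between probes. Both comparisons use the same LPS array, so that an error of that array would enter the ratios of both strains.

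**Figure D3:**
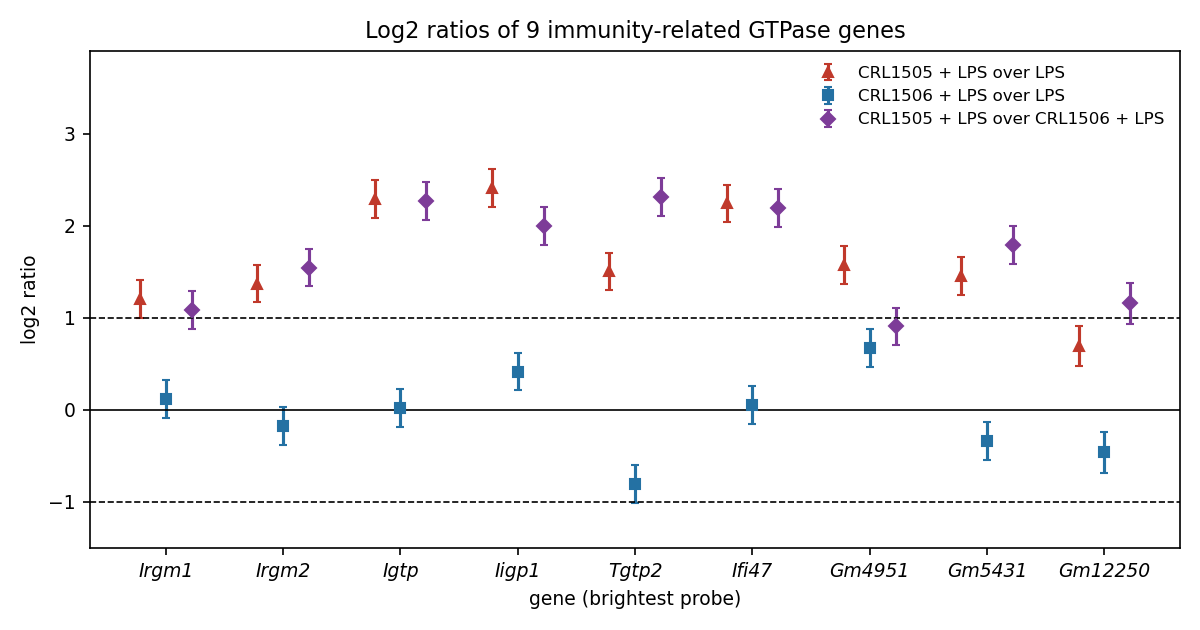
Log2 ratio of each member's brightest probe for CRL1505 + LPS over LPS (red), CRL1506 + LPS over LPS (blue) and CRL1505 + LPS over CRL1506 + LPS (purple), with the standard error of the scanner's error model; dashed lines mark 2-fold. The red points lie above the upper dashed line except that of Gm12250, at 0.69, and all blue points lie between the dashed lines.

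Between strains, without the LPS array, 8 of the 9 members were at least 2-fold higher in CRL1505 + LPS than in CRL1506 + LPS, where 9.02% of the 15780 genes compared were, and 0 were at least 2-fold lower, where 7.47% were. The median was 1.79, with a range of 0.91 to 2.31, beside 0.03 for all genes. *Tgtp2*, which was high with one strain and low with the other, led this comparison at 2.31 (4.96-fold). It was followed by *Igtp* at 2.27, *Ifi47* at 2.19 and, by its brightest probe, *Iigp1* at 1.995. The steps between these 4 were below the SD between probes. The second, dim probe of *Iigp1* had 0.04, however, and the mean over both was 1.02. By the brightest probes *Gm4951* was the member under 2-fold, at 0.91 (1.87-fold), but its second probe had 1.20. Another probe of *Irgm1* had 0.70. Over the 7 other normalizations the count at least 2-fold higher ran from 6 to 9. *Gm4951* was past 2-fold in 1 of them, *Irgm1* in 2, *Gm12250* in 4 and the other members in all 7. At 4-fold 3 members remained, *Tgtp2*, *Igtp* and *Ifi47*, where 2.46% of all genes were higher. At 1.5-fold all 9 were higher, where 19% of all genes were, and 0 lower, where 17.3% were. The same difference of strain and slide stands behind this comparison.

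The genes lie in 3 groups on the chromosomes. *Irgm1*, *Gm5431*, *Tgtp2* and *Ifi47* have their probes within 235 kb of chromosome 11, *Gm12250*, *Igtp* and *Irgm2* within 34.3 kb farther along it, and *Gm4951* and *Iigp1* within 146 kb of chromosome 18. For CRL1505 the median log2 ratio to LPS was 1.48, 1.37 and 1.99 in these groups, and their ranges overlapped. For CRL1506 it was -0.14, -0.17 and 0.54, and by their brightest probes both genes of chromosome 18 had higher ratios than all 7 genes of chromosome 11. With the mean over probes, *Iigp1* had 0.21 and lay below *Irgm1* of chromosome 11, at 0.29. By type, the regulators had a median of 1.37 for CRL1505 and 0.02 for CRL1506, and the 6 other members 1.54 and -0.14. Neighbours could differ, as *Gm12250* and *Igtp*, the outer and middle genes of the short group, had CRL1505 ratios of 0.69 and 2.29.

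Several probes were available for 4 members. The other well measured probes of *Irgm1* (chr11:48679632-48679691 and chr11:48679134-48679193) had log2 ratios of 0.996 and 1.25 for CRL1505 and of 0.29 and 0.05 for CRL1506, an SD of 0.13 over its 3 probes with each strain. A further, dim probe (chr11:48675495-48675554), not well above background with LPS, was at least 1.74-fold higher with CRL1505 and at least 1.64-fold higher with CRL1506. The second probe of *Gm4951* (chr18:60405865-60405924) had 1.59 and 0.39, close to the 1.58 and 0.67 of the first. For *Gm12250* the second probe (chr11:58001797-58001856) had 1.07 for CRL1505, which is past 2-fold where the brighter probe was not, and was not well above background with CRL1506, where it was at least 1.10-fold lower than with LPS. The probes of *Iigp1* disagreed. Its second probe (chr18:60538211-60538270), made for another transcript and dim at intensities of 71.6, 51.0 and 67.2, had ratios of 0.03 for CRL1505 and 0.00 for CRL1506, so that the mean over both probes was 1.22 for CRL1505. Whether the probes lie in coding exons or untranslated parts was not determined.

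The position of the arrays against each other depends on the normalization, so that 7 others were compared. Over these, the members' median minus the median of all genes stayed between 1.30 and 1.45 for CRL1505, between 0.06 and 0.18 for CRL1506 and between 1.48 and 1.75 between strains. All 9 members were above 0 for CRL1505 in each of them. *Igtp*, *Iigp1*, *Ifi47* and *Gm4951* were past 2-fold for CRL1505 in all 7, *Irgm2*, *Tgtp2* and *Gm5431* in 6, *Irgm1* in 5 and *Gm12250* in 0. For CRL1506 the sign of *Irgm1*, *Igtp* and *Ifi47* changed with the normalization, and *Tgtp2* was past 2-fold lower in 1, with a range of -1.01 to -0.71.

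**Figure D4:**
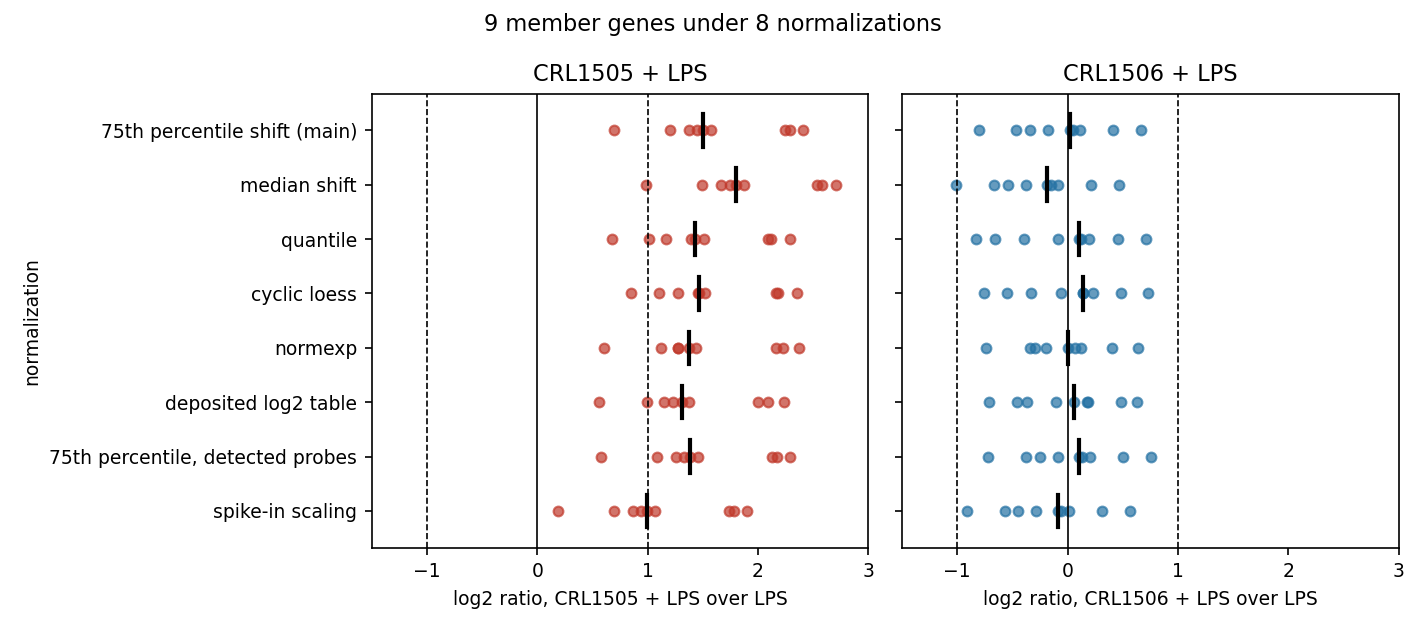
Log2 ratios of the 9 members (points) and their median (black bar) under 8 normalizations, for CRL1505 + LPS over LPS (left) and CRL1506 + LPS over LPS (right); dashed lines mark 2-fold. The left median runs from 0.997 with spike-in scaling to 1.80 with the median shift, and all points on the left lie above 0.

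Genes that act before, beside and after the GTPases were described by lists taken from textbook knowledge. Of all genes 9.93% were at least 2-fold higher for CRL1505 and 5.67% for CRL1506. A count of 0 in a short list thus lies near the share for CRL1506. Guanylate-binding proteins, the partner family, were at least 2-fold higher for CRL1505 in 11 of 11 genes measured, with a median log2 ratio of 2.54, and for CRL1506 in 2 of 11, with a median of 0.69. *Gbp11* had 3.67 and 0.77 for the respective strain, and *Gbp5*, which takes part in inflammasome assembly, 3.31 and 0.16. *Gbp4* had 2.84 and 0.69, and *Gbp8* 2.72 and 0.84. With CRL1506 10 of the 11 were above 0, the exception being *Gbp2* at -0.31, and the count past 2-fold ran from 0 to 2 over the other normalizations. The difference between the families was not tested.

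Of the interferon ligands and receptors, 4 of the 8 measured were at least 2-fold higher for CRL1505 and 3 for CRL1506, with medians of 1.38 and 0.75, beside the 9.93% and 5.67% of all genes given above. *Ifnb1*, which encodes interferon-β, had log2 ratios of 3.46 and 2.31. *Ifna2* had 2.52 and 1.12, *Ifna5* 2.41 and 0.87, and *Ifna1* 1.88 and 0.63, all from dim spots. *Ifnar1*, a chain of the receptor of type I interferons, was the higher one with CRL1506, at 0.46 for CRL1505 and 1.37 for CRL1506, and had -0.91 between strains; it was named after its values were seen. *Ifng*, the gene of interferon-γ, gave no ratio in any comparison under the rules for dim and outlier spots. Its receptor genes were below LPS but under 2-fold with both strains, with -0.60 and -0.47 for *Ifngr1* and -0.42 and -0.47 for *Ifngr2*.

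In the list of JAK-STAT and IRF transducers, which carry the signal from receptor to promoter, 4 of 9 were at least 2-fold higher for CRL1505 and 0 of 9 for CRL1506. Their medians were 0.499 and -0.05, and 9.93% and 5.67% of all genes were that much higher. *Stat2* had 1.56 and 0.53, *Irf2* 2.22 and -0.05, and *Irf7* 1.90 and 0.87. *Jak2* had 1.53 and 0.54. *Irf1* and *Irf8*, activators of interferon-γ target genes, had 0.14 and -0.29 for CRL1505 and -0.51 and -0.56 for CRL1506. The 6 feedback inhibitors had medians of 0.94 and -0.13. Of them 3 were at least 2-fold higher for CRL1505 and 0 for CRL1506, beside the same shares of all genes. The 3 were *Usp18*, at 2.13 and 0.63, *Socs1*, at 1.54 and 0.30, and *Socs3*, at 1.48 and -0.49.

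Targets of the same signals were split between types of interferon, although many respond to both. Of the type I interferon-stimulated genes 13 of 13 were at least 2-fold higher for CRL1505 and 5 of 13 for CRL1506, with medians of 2.05 and 0.87. Of all genes 9.93% and 5.67% were that much higher. *Ifit2* had 2.82 and 0.94, *Ifit3* 2.71 and 1.26, *Rsad2* 2.36 and 1.11, and *Oas2* 2.20 and 1.51. Of the interferon-γ target genes 4 of 9 were at least 2-fold higher for CRL1505, with a median of 0.77. For CRL1506 0 of 10 were higher and 1 was lower, beside 5.67% and 3.53% of all genes, with a median of -0.03. *Nos2*, the inducible nitric oxide synthase, had 3.40 and -0.70, *Fcgr1* 2.40 and 0.95, *Tap1* 1.92 and 0.15, and *Cxcl9*, a chemokine, 1.16 and -1.27. *Nos2* and *Cxcl9* thus resembled *Tgtp2*, *Gm5431* and *Gm12250* in the signs of their ratios, above LPS with CRL1505 and below it with CRL1506. *Socs3*, *Gbp2* and *Irf1* of other lists and the member *Irgm2* had these signs too, so the pattern was not particular to interferon-γ targets.

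The machinery that places GTPases on membranes was described by a pair of lists. Of 10 genes for ATG8 proteins and their conjugation 0 were past 2-fold with either strain, and their medians were 0.07 and -0.04. Of all genes 9.93% and 5.67% were at least 2-fold higher and 8.41% and 3.53% lower, so that 0 of 10 lies near these shares. *Map1lc3a*, named after its values were seen, came closest, at 0.97 (1.96-fold) for CRL1505, and had 1.10 between strains. The count at least 2-fold higher for CRL1505 ran from 0 to 1 over the other normalizations. Of 5 ubiquitin ligases and adaptors found at vacuoles 1 was at least 2-fold higher for CRL1505, *Trim21* at 1.66, and 0 for CRL1506, with medians of 0.61 and -0.03. *Sqstm1*, an adaptor that binds ubiquitin, had 0.87 and -0.03, and *Calcoco1* -0.12 and -0.78; both were named after their values were seen.

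**Figure D5:**
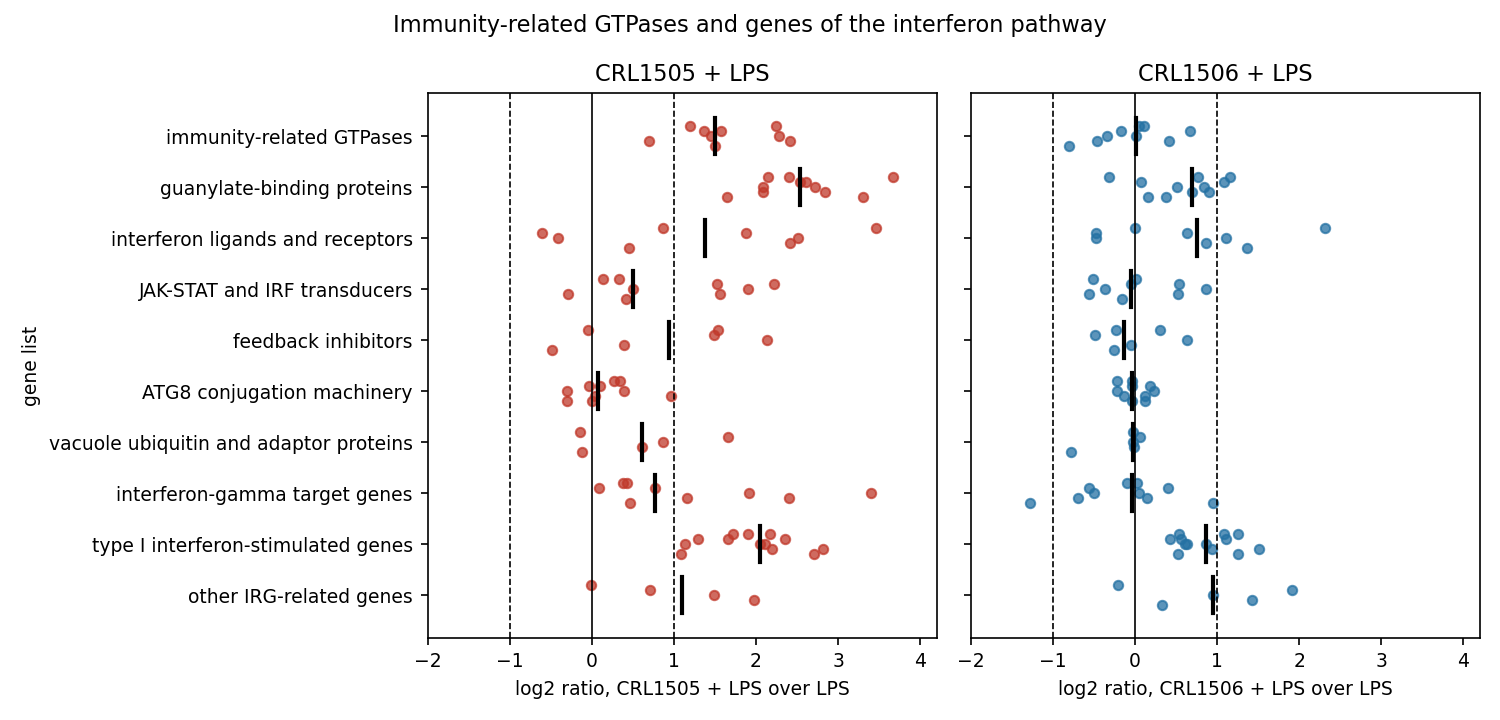
Log2 ratios to LPS of single genes (points) and the median of each list (black bar) for CRL1505 + LPS (left) and CRL1506 + LPS (right), with dashed lines at 2-fold. Immunity-related GTPases have a median of 1.503 on the left and 0.02 on the right, guanylate-binding proteins 2.54 and 0.69, and ATG8 genes 0.07 and -0.04.

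Macrophage markers were well above background on all arrays (8 of 8 genes), but their ratios to LPS ranged widely. *Csf1r* had -1.47 for CRL1505 and -0.87 for CRL1506, *Adgre1* 2.27 and 1.003, *Fcgr1* 2.40 and 0.95, and *Tlr4* -0.06 and -0.83, while the ratios of the other 4 lay between -0.27 and 0.32. No array had a marker of B cells, epithelium or hepatocytes well above background. Both T cell markers were well above it, with *Cd3e* at 869 with LPS, 540 with CRL1505 + LPS and 837 with CRL1506 + LPS and *Cd3d* at 49.6 to 70.2. The fibroblast markers were dim but differed between arrays, with *Col1a1* at 12.8, 6.64 and 113 in the same order and *Col1a2* at 37.6, 91.5 and 47.0. The part of these signals in the results was not tested.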

How the data were processed

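RNA of RAW macrophages was hybridised to 1-colour SurePrint G3 Mouse GE microarrays, 1 array for each of LPS, CRL1505 + LPS and CRL1506 + LPS. The authors deposited the intensity of each spot as Agilent Feature Extraction, version 12.0.3.1 by the file headers, gives it, with background subtracted and no normalization between arrays. They also deposited a table of log2 values normalized between arrays, with a median of 6.77 on each, whose values differed from normexp and quantile normalized intensities by at most 0.135.

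Here the 75th percentile of an array's gene spots was subtracted from each log2 processed intensity. Outlier spots were left out (467, 241 and 274 on the respective array) and repeated spots averaged. A gene was represented by its brightest probe without an outlier spot. Probes well above background on neither compared array were left out. Where this held for 1 of the compared arrays, the ratio was set against the higher of the lowest signal well above background on that array and the probe's own signal, and given as "at least". The threshold was 2-fold, as in the methods. The t-test of the methods needs replicates and was not run. The number of arrays limited the precision, and 48.5% to 55.3% of their gene spots were well above background. Over repeated spots, the SD of a log2 ratio had a median of 0.048, 0.043 and 0.047, a measure of error inside 1 hybridisation.

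The members, gene lists and alternatives were chosen with earlier results of these data known, and the promoter motifs after the promoters had been read. All members are named, with up to 4 genes of each list that had the largest ratios past 2-fold in either strain, and *Ifnb1*, *Irf1*, *Irf8*, *Socs1*, *Ifngr1* and *Ifngr2* whatever their value. Of the genes of the lists 1 is not reported here and was left out of its list. Alternatives were a median shift, quantile normalization, normexp with an offset of 50, cyclic loess, the deposited log2 table, a 75th percentile taken from commonly detected probes, spike-in scaling, dropping the filter on dim probes, a filter that asked for signal well above background on each array, the mean over probes, outlier spots kept, uneven spots left out, thresholds of 1.5-fold and 4-fold, and removal of probes shared by members, of which there were none. The files give probe positions on mm9, and promoters are from RefSeq on GRCm38.p6. Computations used R 4.3.3 (limma 3.58.1) and Python 3.11.15 (NumPy 2.4.6, pandas 2.3.3). The procedure was tested on simulated data whose noise was that of repeated spots, so variation between probes, slides or cultures was not covered.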

Additional observations from a re-analysis of the deposited data

Results flagged for a closer look

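The ratios of 4 members to LPS had opposite signs with the strains, and in 3 of these both ratios exceeded the SD between probes of a gene. *Tgtp2* had a log2 ratio of 1.503 with CRL1505 and -0.81 with CRL1506. *Gm5431* had 1.45 and -0.34, and *Gm12250* had 0.69 and -0.46. In the remaining one, *Irgm2*, at 1.37 and -0.17, the CRL1506 ratio was within that SD. These signs were the same in all 7 other normalizations. Of all genes compared, 50.7% were above 0 for CRL1505 and 42.7% for CRL1506. The share of all genes with opposite signs was not determined, so the count of members cannot be set against it. With 1 array per condition the difference was not tested, and strain CRL1505 and its slide cannot be told apart.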

How the results depend on the processing

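The statements on the family rest on its medians and its counts past 2-fold. Of 129 such values under alternatives 119 stayed within the spread or within 1.5 times the count, and 10 moved. Shifting the arrays by their medians gave a family median of 1.80 for CRL1505 over LPS and 2.28 between strains, and 1 member (*Tgtp2*) at least 2-fold lower for CRL1506, where 5.37% of all genes were. Scaling to spike-in probes gave medians of 0.997 and 1.39 and 4 members at least 2-fold higher for CRL1505, where 4.97% of all genes were higher and 19.7% lower. The median of all genes moved along, to 0.35 and 0.58 with the median shift and to -0.45 and -0.31 with the spike-in scaling. At 4-fold, 3 members were higher for CRL1505 over LPS and 3 between strains. At 1.5-fold, 1 member was higher (*Gm4951*) and 1 lower (*Tgtp2*) for CRL1506. Of 351 values of single genes 311 stayed within the spread and 40 moved. Of the latter, 36 came from the median shift and the spike-in scaling and the others from the deposited table for *Ifi47* (1.999 over LPS and 1.82 between strains) and from the mean over probes for *Iigp1* (1.22 and 1.02). No value beyond the spread reversed its sign. The values that stayed include those of alternatives that could not change the brightest probes, so the counts overstate how far the results were tried. These were both changes of the filter on dim probes, outlier spots kept, uneven spots left out and the removal of shared probes. All brightest probes were well above background, unflagged and even, and none was shared. Leaving out a replicate was not possible with 1 array per condition. No paired analysis was possible because each condition had 1 array. The cause of these shifts was not tested.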

Other observations

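Further genes related to the family were measured. At least 2-fold higher than with LPS were 2 of 4 compared for CRL1505 and 2 of 5 for CRL1506. Their medians were 1.10 and 0.95, and 9.93% and 5.67% of all genes were that much higher. Between strains 0 of 4 were at least 2-fold higher and 1 was lower, beside 9.02% and 7.47% of all genes. *9930111J21Rik1* had a log2 ratio to LPS of 1.49 for CRL1505 and 0.95 for CRL1506, and *9930111J21Rik2* of 1.97 and 1.43. *F830016B08Rik* was the other way round, at 0.71 and 1.91, and was lower in CRL1505 + LPS than in CRL1506 + LPS by a log2 ratio of -1.20. *Irgq* had -0.01 and -0.20. *Gm12185*, the other gene with the joint GAS and ISRE letters in its promoter, was well above background with CRL1506 + LPS only, where it was at least 1.26-fold higher than with LPS. *Irgc1* gave no ratio in any comparison under the rules for dim and outlier spots. Of the 464 genes other than the 10 members that had an ISRE match in a promoter and were compared for CRL1505, 117 (25.2%) were at least 2-fold higher than with LPS, beside 9.93% of all genes. For CRL1506 it was 34 of 463 genes (7.34%), beside 5.67% of all genes. For genes with a GAS match the share was 11.7% of 985 for CRL1505 and 6.11% of 1031 for CRL1506. At least 2-fold lower for CRL1505 were 6.25% of the ISRE genes and 6.70% of the GAS genes, beside 8.41% of all genes. For CRL1506 it was 3.02% and 3.59%, beside 3.53%. The median log2 ratios of ISRE and GAS genes were 0.26 and 0.07 for CRL1505 and 0.02 and -0.04 for CRL1506. These shares and medians describe single arrays and were not tested.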
